A study of Mus musculus with 4 samples.

Results

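The protocadherins were followed as 40 of the 41345 probe sets on the array, all those whose gene symbol in the platform annotation starts with Pcdh. Of the 40, 26 belong to the gene clusters: 22 to Pcdhb, 3 to Pcdhg and 1 to Pcdha. The other 14 belong to 12 non-clustered genes. A single gene symbol stood beside 36 of the probe sets and several beside 4. The cells were P19, a mouse embryonal carcinoma line that leaves the pluripotent state in retinoic acid. The Ctcfl line is a P19 clone that stably carries pBI-EGFP-FLAG-mCtcfl and pTA-N, a Tet-Off system, and it had been kept for 2 days without doxycycline so that the transgene was on. Wild-type P19 carried no integrate. Its growth description gives ordinary medium, whereas its sample characteristics give 2 µg/ml doxycycline. The labels of the Ctcfl-line samples also give 2 µg/ml doxycycline, beside the 2 days without it. Cells of each line received 10 µM retinoic acid for 4 days or, as undifferentiated cells, ethanol. Each of the 4 conditions had 1 array, so there were no replicates. The line difference is thus that of a single clone with its integrated vectors, and clone, vector, doxycycline and Ctcfl cannot be told apart.

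Protocadherins are single-pass membrane proteins of the cadherin superfamily that bind the same isoform on a neighbouring cell. The Pcdha, Pcdhb and Pcdhg genes lie in tandem on 1 chromosome. Each Pcdha or Pcdhg variable exon has a promoter of its own and is spliced to constant exons of its cluster, whereas each Pcdhb gene is a single exon with no constant part. In neurons a few of these promoters are chosen in each cell, with Ctcf and cohesin bound at most of them, and the choice gives the cell a surface identity. The non-clustered genes, most of them of the delta group, have conserved cytoplasmic motifs and act in cell sorting, migration and the wiring of particular tracts.

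The arrays had median log2 signals between 6.95 and 6.96 and correlated with each other at 0.961 to 0.985. Background was gauged from olfactory receptors: the 95th percentile of 1104 olfactory receptor probe sets, called the olfactory guide here, lay between 6.82 and 6.95 on the arrays. Protocadherin signals were close to it: 26 of the 40 exceeded it on at least 1 array and 9 on all 4. A probe set was tested if its highest log2 signal reached 6; 34 of the 40 did so, 9 of them with a signal below 6 on some arrays. Where a gene had more than 1 probe set (874 genes), the log2 differences of its sets were compared. Their SD was between 0.226 and 0.331 in the 4 comparisons of 2 arrays. The sets of a gene were read on the same arrays, so this SD holds no variation between samples and is not the error of a comparison. Ctcfl itself was higher in the Ctcfl line by log2 2.42 in retinoic acid and 2.55 without it, with an averaged effect of log2 2.49 that did not pass among all probe sets (adjusted p = 0.0916). Of 8 markers of pluripotent cells 0 rose with retinoic acid and 5 fell, and their summed linear signal was 6929.9 in Ctcfl-line and 6856 in wild-type cells with retinoic acid, against 21014 in Ctcfl-line and 17761 in wild-type cells without it. Of 12 neuron markers 1, Dcx, rose and 0 fell, while at an unadjusted p under 0.05 2 were higher and 7 lower, with sums of 2706 in Ctcfl-line and 3895 in wild-type cells with retinoic acid, against 4516 in Ctcfl-line and 6238 in wild-type cells without it. Such sums weigh high signals most, and Stmn2 alone had log2 11.65 in undifferentiated wild-type cells. The median log2 signals were 7.55 in Ctcfl-line and 7.61 in wild-type cells with retinoic acid, against 7.95 and 8.08 without it. Of the other markers, 1 of 7 for neural progenitors rose and 1 fell, 1 of 6 for endoderm and 2 of 6 for mesoderm rose and 0 fell, and of 6 for glia 0 passed, adjusted or not. Over all tested probe sets, 2.22% rose and 0.703% fell, while 13.1% were higher and 7.52% lower at an unadjusted p under 0.05. Some of the cell type markers, among them Zfp42, S100b and Olig2, stayed below the olfactory guide on every array. The part of the markers in the results below was not tested. In bulk RNA, fewer cells of a type and less RNA per cell cannot be told apart.

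What the probe sets can read differs between the clusters. Each of the 22 Pcdhb genes had a probe set of its own. The Pcdhb genes are close paralogs, and how far their probes share targets was not tested. The Pcdha probe set carried 9 gene symbols and the Pcdhg probe set another 9, so neither reports a single isoform. The annotation gives no strand for a probe set, but the probe set numbers follow it: on the other chromosomes, 17162 of 17822 genes (96.3%) lay in the number block of their own strand, plus before minus. On the chromosome of the clusters, all 22 Pcdhb probe sets lay in the first block, whereas the Pcdha and the Pcdhg probe set lay in the second. The clusters are transcribed in the same direction, so whether the Pcdha and Pcdhg sets read the messenger RNA or its opposite strand is not settled, and their values are given as those of the probe sets only. The same holds for a second Pcdh10 probe set, shared with 1700027H10Rik, which lay in the minus block although Pcdh10 is annotated on the plus strand.

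Many Pcdhb genes were higher with retinoic acid. In the additive limma fit, 8 of the 18 tested Pcdhb probe sets rose with retinoic acid averaged over the lines and 0 fell; with Pcdh7, 9 of all 34 tested protocadherins rose and 0 fell. Among all 31136 probe sets, 2.22% rose and 0.703% fell. The 8 were Pcdhb2, Pcdhb3, Pcdhb11, Pcdhb16, Pcdhb17, Pcdhb18, Pcdhb21 and Pcdhb22, with differences in signal between log2 1.03 (Pcdhb2) and 1.70 (Pcdhb21). Of the 9, 7 (all but Pcdhb18 and Pcdh7) were at or below the olfactory guide on both undifferentiated arrays, so these are differences in signal and the fold in RNA is not known. Of the 34 tested, 4 reached log2 6 only with retinoic acid (Pcdhb3, Pcdhb15, Pcdhb21 and Pcdh9), so they entered the test through the arrays on which they were high; Pcdhb3 and Pcdhb21 are among those that rose. With no filter on low signals 1 of the 40, Pcdhb21, passed, where 0.31% of all probe sets rose and 0.0992% fell. With a filter on the mean signal, 8 of 32 rose and 0 fell, where 2.41% and 0.885% of all did. At an unadjusted p under 0.05, 13 of the 34 were higher and 2 lower, beside 13.1% and 7.52% of all tested sets.

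Pcdhb21 had log2 signals of 7.15 in Ctcfl-line and 6.25 in wild-type cells with retinoic acid, against 5.48 in Ctcfl-line and 4.53 in wild-type cells without it. Both arrays with retinoic acid lay above both arrays without it, and the averaged effect was log2 1.70 ± 0.15 (SE, adjusted p = 0.0196). The wild-type value without retinoic acid was below the olfactory receptor median of that array, 4.79. With no replicates, the SE rests on how far the responses of the lines differed, moderated by limma over all probe sets. The SE and p-values of this fit, here and below, do not measure variation between replicate cultures. Pcdhb3 gave signals of 7.58 in Ctcfl-line and 6.97 in wild-type cells with retinoic acid, against 5.97 in Ctcfl-line and 5.51 in wild-type cells without it. Its effect was log2 1.53 ± 0.15 (SE, adjusted p = 0.0238), and the lines gave close values, with differences of log2 1.60 in the Ctcfl line and 1.46 in wild type. Its neighbour Pcdhb2 gave 7.43 in Ctcfl-line and 6.66 in wild-type cells with retinoic acid, against 6.28 in Ctcfl-line and 5.76 in wild-type cells without it. Pcdhb2 had the smallest effect of the 8, log2 1.03 ± 0.16 (SE, adjusted p = 0.0474).

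Pcdhb16, Pcdhb17 and Pcdhb18 are adjacent genes that rose together. Pcdhb17 had log2 signals of 8.59 in Ctcfl-line and 7.74 in wild-type cells with retinoic acid, against 6.87 in Ctcfl-line and 6.58 in wild-type cells without it. For Pcdhb16 they were 7.91 in Ctcfl-line and 7.20 in wild-type cells with retinoic acid, against 6.18 in Ctcfl-line and 6.06 in wild-type cells without it. Both differed by log2 1.44 in signal with retinoic acid (adjusted p = 0.0384 for Pcdhb17 and 0.0399 for Pcdhb16). Pcdhb18 had signals of 8.31 in Ctcfl-line and 7.26 in wild-type cells with retinoic acid, against 6.96 in Ctcfl-line and 6.29 in wild-type cells without it, and rose by log2 1.16 in signal (adjusted p = 0.0444). In all 3, as in every Pcdhb set that rose, the array of the Ctcfl line with retinoic acid was the highest.

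In Pcdhb22 and Pcdhb11, unlike in Pcdhb16, Pcdhb17 and Pcdhb18, the Ctcfl line did not respond more than wild type, and the same held for Pcdhb21. The response of the Ctcfl line minus that of wild type was log2 -0.42 in Pcdhb22, -0.11 in Pcdhb11 and -0.05 in Pcdhb21. This quantity was not tested, and its SD between probe sets of the same gene was 0.321. Pcdhb22 had log2 signals of 7.94 in Ctcfl-line and 7.77 in wild-type cells with retinoic acid, against 6.85 in Ctcfl-line and 6.26 in wild-type cells without it, and rose by log2 1.30 in signal (adjusted p = 0.0376). Pcdhb11 had 7.31 in Ctcfl-line and 7.15 in wild-type cells with retinoic acid, against 6.23 in Ctcfl-line and 5.96 in wild-type cells without it, and rose by log2 1.14 in signal (adjusted p = 0.0368). In Pcdhb22 and Pcdhb11 the lines nearly coincided once retinoic acid was present.

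**Figure D1:**
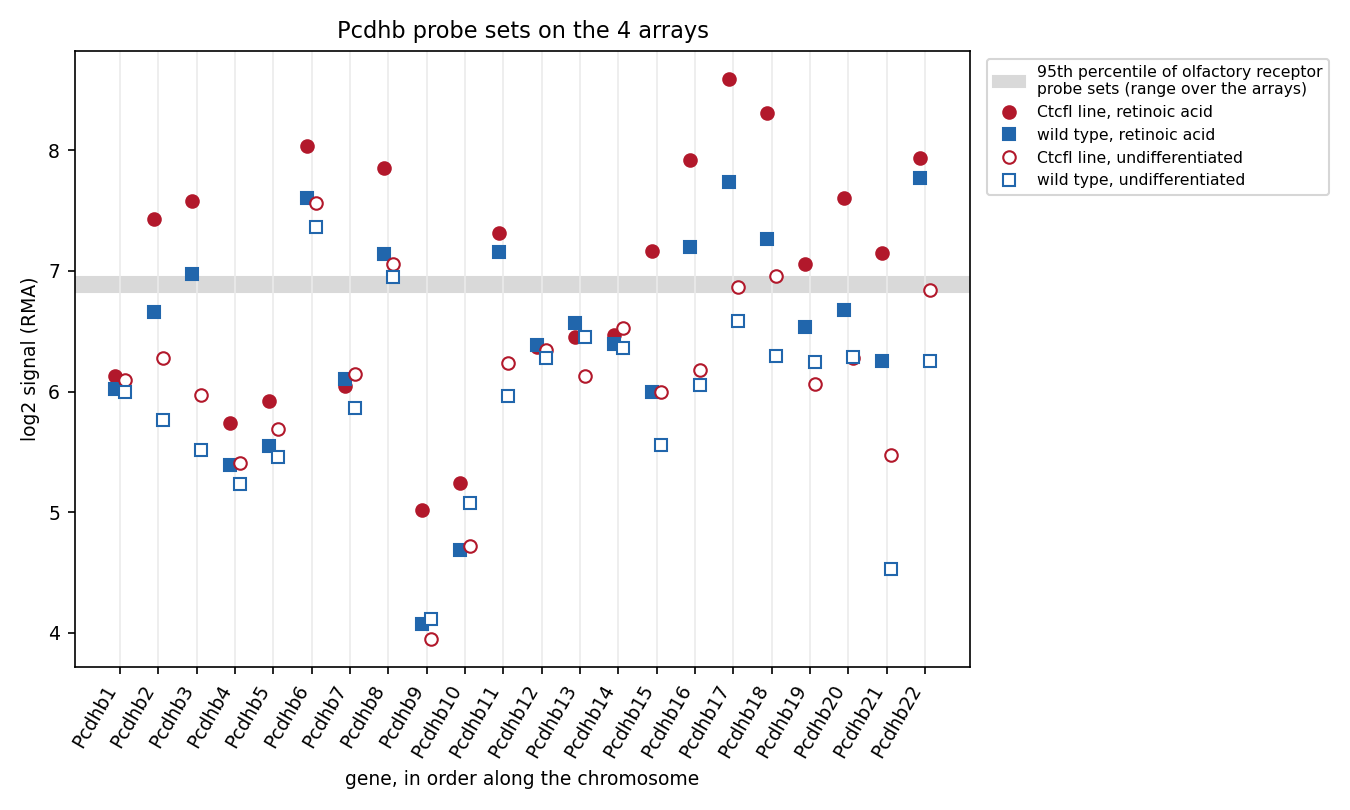
Log2 signal (vertical axis) of the 22 Pcdhb probe sets, in their order along the chromosome, on the array of each condition, with a grey band for the 95th percentile of olfactory receptor probe sets. From Pcdhb15 to Pcdhb22 the filled symbols (retinoic acid) lie above the open ones (undifferentiated), except that wild-type cells with retinoic acid and Ctcfl-line cells without it coincide in Pcdhb15, whereas Pcdhb12 to Pcdhb14 lie together at signals between 6.13 and 6.57.

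A further 3 Pcdhb genes had an unadjusted p under 0.05 and did not pass after adjustment: Pcdhb15, Pcdhb19 and Pcdhb20. Pcdhb20 had log2 signals of 7.60 in Ctcfl-line and 6.67 in wild-type cells with retinoic acid, against 6.28 in Ctcfl-line and 6.29 in wild-type cells without it (adjusted p = 0.163). Pcdhb15 had 7.17 in Ctcfl-line and 5.996 in wild-type cells with retinoic acid, against 5.997 in Ctcfl-line and 5.55 in wild-type cells without it (adjusted p = 0.136). In both, the Ctcfl line with retinoic acid stood apart and the other 3 arrays lay closer together. Pcdhb6 and Pcdhb8 were the 2 Pcdhb sets above the olfactory guide on all 4 arrays. Pcdhb6 had signals of 8.03 in Ctcfl-line and 7.60 in wild-type cells with retinoic acid, against 7.56 in Ctcfl-line and 7.36 in wild-type cells without it (adjusted p = 0.287). Pcdhb8 had 7.85 in Ctcfl-line and 7.14 in wild-type cells with retinoic acid, against 7.06 in Ctcfl-line and 6.95 in wild-type cells without it (adjusted p = 0.26). The remaining 5 tested Pcdhb sets (Pcdhb1, Pcdhb7, Pcdhb12, Pcdhb13 and Pcdhb14) had averaged effects between log2 -0.01 and 0.22. Pcdhb4, Pcdhb5, Pcdhb9 and Pcdhb10 stayed below log2 6 on every array and were not tested. Of these, Pcdhb9 had signals of 5.02 in Ctcfl-line and 4.07 in wild-type cells with retinoic acid, against 3.95 in Ctcfl-line and 4.11 in wild-type cells without it, close to or below the olfactory medians, which lay between 4.69 and 4.79.

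Counted over all 22 Pcdhb sets with no filter, both arrays with retinoic acid lay above both without it in 13 (59.1%) and below both in 0; among all tested probe sets the shares were 23.8% and 27.6%. The median Pcdhb difference with retinoic acid was log2 1.03 in the Ctcfl line and 0.26 in wild type, beside -0.03 and -0.02 over all 41345 probe sets. In the Ctcfl line 10 of the 18 tested Pcdhb sets were higher by 2-fold or more and 0 were lower by as much, where 4.72% and 1.28% of all tested sets were. In wild-type cells 6 of the 18 were at least 2-fold higher and 0 lower, where 3.69% and 1.97% of all were. Pcdhb3 and Pcdhb21 in both counts, and Pcdhb15 in that of the Ctcfl line, reached log2 6 only with retinoic acid. They thus entered these counts through arrays on which they were high. With no filter, 11 of the 22 were 2-fold higher in the Ctcfl line and 6 in wild type. Of all 41345 probe sets, 1864 and 1390 were. Across the 22 genes the differences in the lines, which share no array, were correlated (Pearson's r = 0.759, Spearman's rho = 0.766). The points share a gene family with similar sequences, and over all 31136 tested sets r was 0.61.

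The response was uneven along the cluster. The 8 genes at its far end, Pcdhb15 to Pcdhb22, were all higher with retinoic acid in each line. Their differences ran between log2 0.99 and 1.74 in the Ctcfl line and between 0.29 and 1.72 in wild type. The 3 genes before them, Pcdhb12 to Pcdhb14, ran between log2 -0.06 and 0.32 in the Ctcfl line and between 0.04 and 0.12 in wild type. The 7 genes Pcdhb4 to Pcdhb10 had medians of log2 0.47 in the Ctcfl line and 0.16 in wild type, while Pcdhb2, Pcdhb3 and Pcdhb11 lay outside the far end and rose. These stretches were drawn after the values were seen. Over all 22 genes, Spearman's rho between order and difference was 0.467 in the Ctcfl line and 0.443 in wild type, given as a description only.

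The probe sets of the other clusters did not pass. The Pcdha probe set had log2 signals of 7.21 in Ctcfl-line and 7.30 in wild-type cells with retinoic acid, against 7.23 in Ctcfl-line and 7.34 in wild-type cells without it (adjusted p = 0.92). Its 4 values spanned less than the spread between probe sets of the same gene. The Pcdhg probe set had 5.86 in Ctcfl-line and 6.29 in wild-type cells with retinoic acid, against 6.51 in Ctcfl-line and 6.59 in wild-type cells without it (adjusted p = 0.213). Pcdhga10, the only Pcdhg gene with a symbol to itself, had 7.27 in Ctcfl-line and 7.27 in wild-type cells with retinoic acid, against 7.03 in Ctcfl-line and 6.81 in wild-type cells without it (adjusted p = 0.295). Another probe set carried Pcdhga10 together with Gm19774, and its signals were 12.44 in Ctcfl-line and 12.35 in wild-type cells with retinoic acid, against 12.23 in Ctcfl-line and 11.61 in wild-type cells without it (adjusted p = 0.251). Both sets were higher with retinoic acid in each line, but which transcript the shared set reads is not settled.

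**Figure D2:**
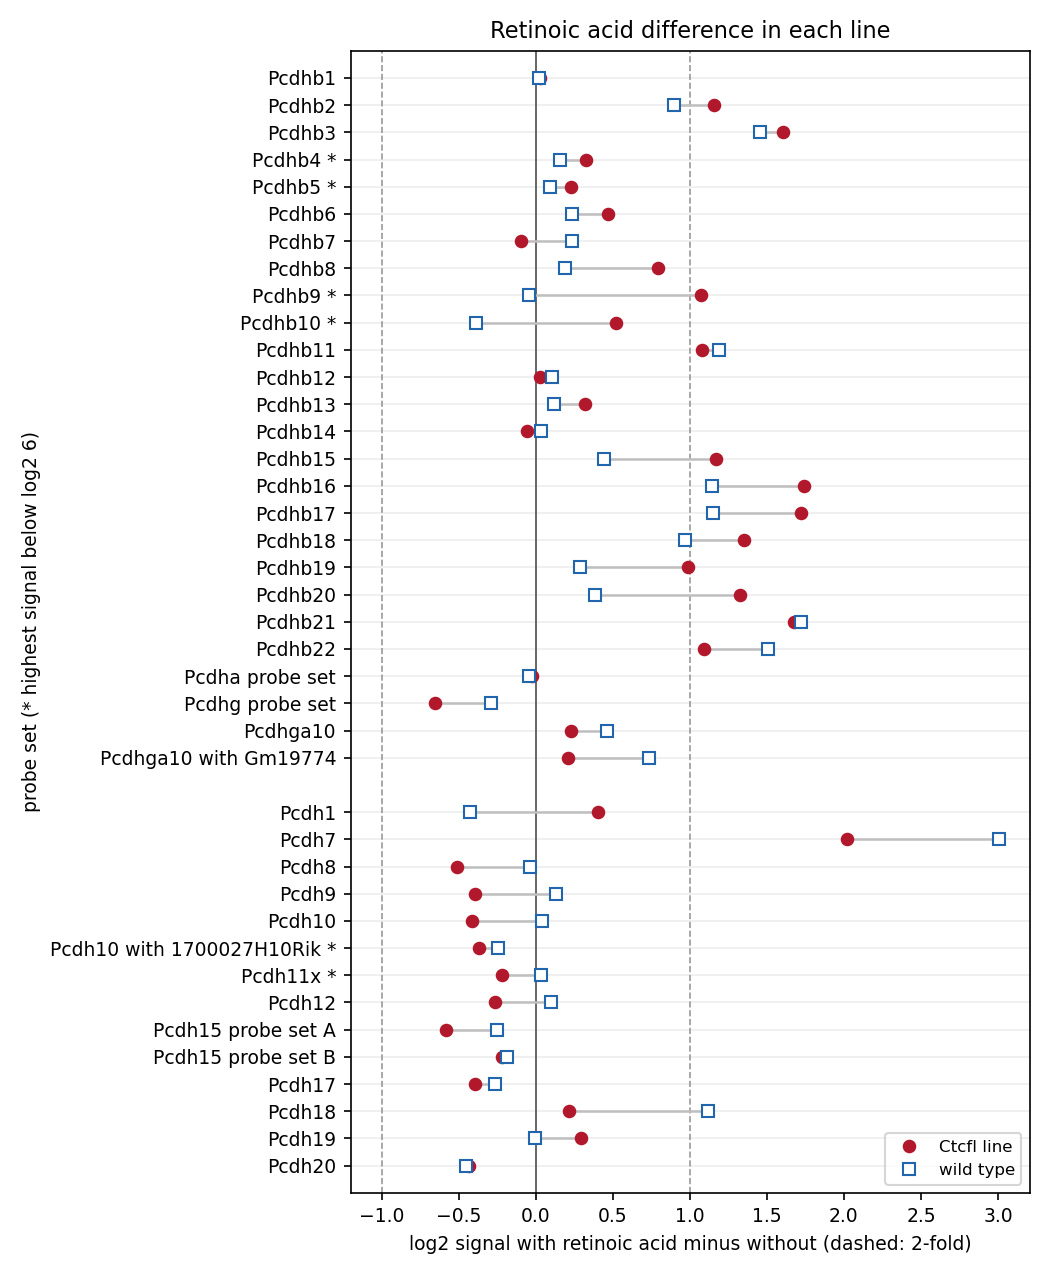
Log2 signal with retinoic acid minus without it (horizontal axis) for all 40 probe sets, clustered above and non-clustered below, with filled circles for the Ctcfl line, open squares for wild type and dashed lines at 2-fold. Most Pcdhb sets lie to the right of 0, whereas among the non-clustered sets Pcdh7 stands alone beyond 2-fold in both lines.

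Of the non-clustered genes, Pcdh7 had the largest response. Pcdh7 encodes a delta protocadherin, called NF-protocadherin in Xenopus, where it acts in neural fold and axon development. Its log2 signals were 9.57 in Ctcfl-line and 9.36 in wild-type cells with retinoic acid, against 7.55 in Ctcfl-line and 6.36 in wild-type cells without it. The signal was 4.05-fold higher with retinoic acid in the Ctcfl line and 8.03-fold higher in wild type, and the averaged effect was log2 2.51 ± 0.27 (SE, adjusted p = 0.0261). The wild-type signal without retinoic acid was below the olfactory guide of its array (6.95), so the wild-type fold in RNA, and its contrast with the Ctcfl line, are not exact. The lines came within log2 0.21 of each other with retinoic acid and differed by 1.19 without it. It was the only one of 12 tested non-clustered probe sets to rise, and 0 fell.

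Pcdh18, a delta protocadherin whose cytoplasmic part binds the adaptor Dab1 in mouse, had log2 signals of 8.54 in Ctcfl-line and 9.43 in wild-type cells with retinoic acid, against 8.32 in both lines without it. It was 1.16-fold higher with retinoic acid in the Ctcfl line and 2.17-fold higher in wild type, and the averaged effect did not pass (adjusted p = 0.229). The wild-type array with retinoic acid was thus the high one of the 4. Pcdh7 and Pcdh18 were the non-clustered genes at least 2-fold higher with retinoic acid in wild-type cells. Their promoters are shown as RefSeq gives them on GRCm38.p6, 250 bases before a transcript start and 50 after it. The Pcdh7 window begins at 57717831, inside the gene, which is annotated from 57716145. Capitals mark CGCT on either strand (read as AGCG on the other), the core of the conserved element in clustered protocadherin promoters.
Pcdh7, chr5:57717831-57718130, plus strand: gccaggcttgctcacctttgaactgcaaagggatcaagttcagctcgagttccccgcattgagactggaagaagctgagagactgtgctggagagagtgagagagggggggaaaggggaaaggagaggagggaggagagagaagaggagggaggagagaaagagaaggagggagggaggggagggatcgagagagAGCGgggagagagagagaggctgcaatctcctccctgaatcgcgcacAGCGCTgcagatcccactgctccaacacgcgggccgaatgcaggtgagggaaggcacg
Pcdh18, chr3:49757267-49757566, minus strand: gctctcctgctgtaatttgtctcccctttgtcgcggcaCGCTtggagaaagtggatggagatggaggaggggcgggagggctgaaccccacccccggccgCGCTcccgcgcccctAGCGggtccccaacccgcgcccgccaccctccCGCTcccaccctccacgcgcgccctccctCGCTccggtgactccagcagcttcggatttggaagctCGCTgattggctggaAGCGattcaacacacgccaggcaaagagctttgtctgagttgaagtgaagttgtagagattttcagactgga

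The Pcdh7 promoter held 3 such matches, a pair of which overlap, and the Pcdh18 promoter held 7. All 9 non-clustered genes with a promoter in the table held CGCT, as did 61.8% of 32851 promoters of the same length. The GC content was 59.3% for Pcdh7 and 63% for Pcdh18, beside a median of 52.7% over all promoters. A loose form of the Ctcf core motif on either strand was in 1 of the 9 genes, Pcdh15, and in 8.61% of all promoters. The windows of Pcdh7, Pcdh9 and Pcdh15 lie wholly within the annotated span of the gene, so they flank a start other than its outermost. The retinoic acid receptor hexamer AGGTCA, looked for after the values were seen, was in 0 of the 9 on either strand and in 16.3% of all promoters. These matches describe letters in a window and show no binding. Promoters of Pcdh1, Pcdh11x, Pcdh12 and the clusters were not analysed here.

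Pcdh1, a protocadherin of epithelia, had differences of opposite sign in the lines. Its log2 signals were 9.71 in Ctcfl-line and 8.37 in wild-type cells with retinoic acid, against 9.30 in Ctcfl-line and 8.79 in wild-type cells without it. With retinoic acid it was higher by log2 0.41 in the Ctcfl line and lower by 0.42 in wild type, so that the averaged effect was near 0 (adjusted p = 0.991). Pcdh8, the paraxial protocadherin of the presomitic mesoderm, had 7.98 in Ctcfl-line and 7.81 in wild-type cells with retinoic acid, against 8.49 in Ctcfl-line and 7.85 in wild-type cells without it (adjusted p = 0.446). Only the Ctcfl line without retinoic acid stood higher.

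The other non-clustered sets had small differences with retinoic acid. Pcdh20 was lower by log2 0.43 in the Ctcfl line and 0.45 in wild type (adjusted p = 0.194), and Pcdh17, a protocadherin of synapses in the basal ganglia, by 0.39 and 0.27 (adjusted p = 0.3). Of the pair of sets for Pcdh15, a component of the tip links of hair cells, the first was lower by log2 0.58 in the Ctcfl line and 0.25 in wild type, and the second by 0.22 and 0.18. Both Pcdh15 sets gave the same sign, and neither passed (adjusted p = 0.249 and 0.491). Averaged effects of the others that were tested, Pcdh9, Pcdh10, Pcdh12 and Pcdh19, lay between log2 -0.19 and 0.14. Pcdh11x and the second Pcdh10 set stayed below log2 6 on every array. That second set had 5.25 in Ctcfl-line and 5.34 in wild-type cells with retinoic acid, against 5.62 in Ctcfl-line and 5.59 in wild-type cells without it.

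**Figure D3:**
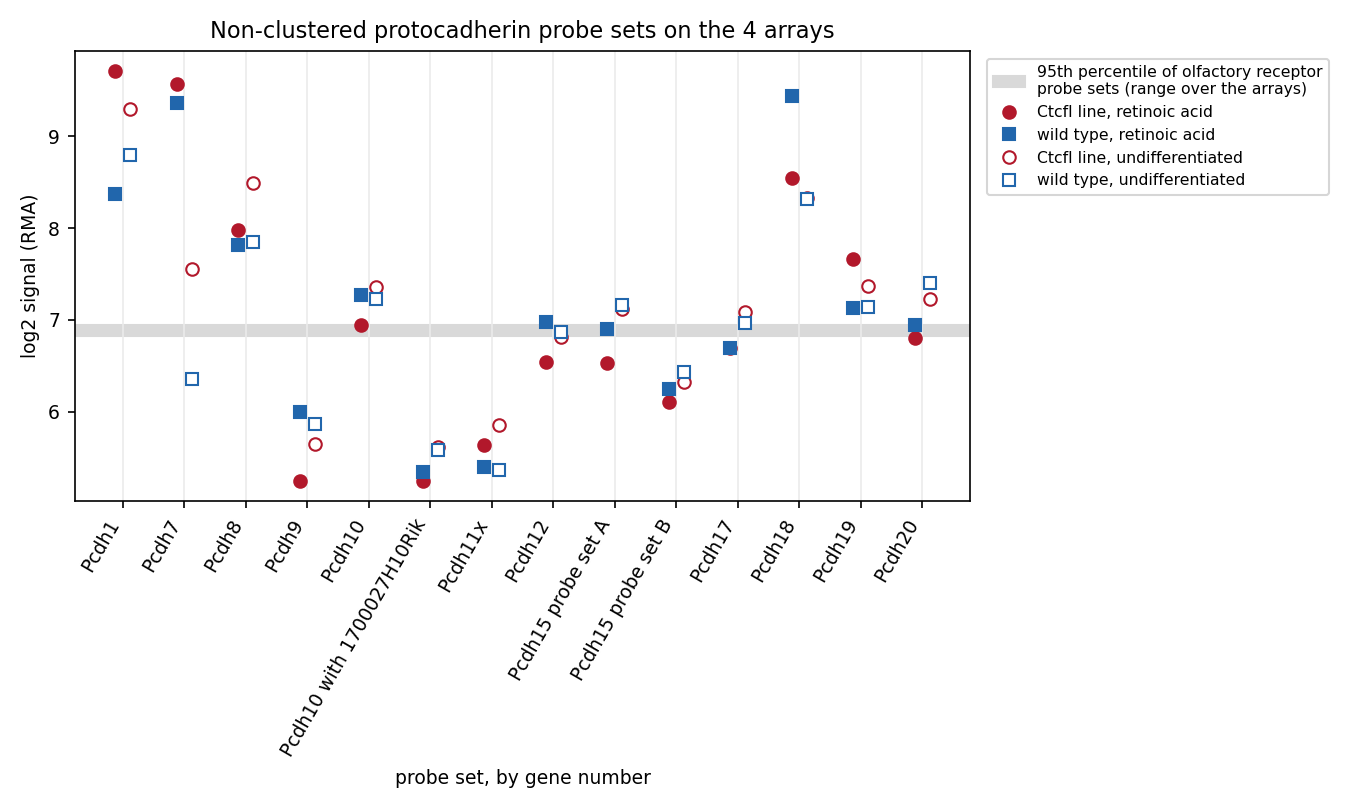
Log2 signal (vertical axis) of the 14 non-clustered probe sets on the array of each condition, with a grey band for the 95th percentile of olfactory receptor probe sets. In Pcdh7 both retinoic acid arrays lie above both undifferentiated arrays, and in Pcdh1 both Ctcfl-line arrays lie above both wild-type arrays, with a smaller gap without retinoic acid.

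Set beside each other with no filter, 22 of 26 clustered sets were higher with retinoic acid in the Ctcfl line and 22 in wild type, against 4 and 6 of the 14 non-clustered sets. Over all 41345 probe sets, 47.2% were higher in the Ctcfl line and 47.7% in wild type. The non-clustered share in wild type, 42.9%, is near the latter. The clustered medians were log2 0.66 in the Ctcfl line and 0.26 in wild type, and the non-clustered medians were -0.32 and -0.02. Both retinoic acid arrays lay above both others in 15 of the 26 clustered sets and in 2 of the 14 non-clustered, and below both others in 1 and 5. The shares over all tested sets were 23.8% above and 27.6% below, which the non-clustered shares of 14.3% and 35.7% are near. Of the 26 clustered sets 22 belong to a single family of paralogs, so they are not independent, and no test of the contrast between the groups was made.

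No protocadherin passed for the line in limma, where 1 of the 31136 probe sets rose (0.00321%) and 0 fell; Ctcfl itself did not pass, so this does not show that the lines were alike. At an unadjusted p under 0.05, 8 of the 34 tested were higher in the Ctcfl line and 1, Pcdh9, was lower, beside 6.96% and 2.87% of all tested sets. Pcdh9, and Pcdhb15 among the 8, each reached log2 6 on 1 array only, the one on which it was highest. The 8 were Pcdh1, Pcdh7 and 6 Pcdhb genes, and the lowest adjusted p among them was 0.224, for Pcdhb21. Its signal was higher in the Ctcfl line by log2 0.90 with retinoic acid. Only the Ctcfl-line array with retinoic acid was above the olfactory guide for Pcdhb21, so the wild-type signal in this difference was below the guide.

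In retinoic acid 3 of the 34 were higher in the Ctcfl line by 2-fold or more and 0 were lower by as much, beside 1.87% and 0.376% of all tested sets. They were Pcdh1 (2.53-fold), Pcdhb15 (2.25-fold in signal, over a wild-type signal below the olfactory guide) and Pcdhb18 (2.07-fold). Pcdhb15 reached log2 6 on 1 array only, that of the Ctcfl line with retinoic acid, so it entered this count through the array on which it was high. In undifferentiated cells 1 of the 34, Pcdh7, had a signal at least 2-fold higher (2.29-fold) and 0 lower, beside 2.11% and 0.996% of all; its wild-type signal was below the olfactory guide. Over all 22 Pcdhb sets the Ctcfl line was higher in both states in 15 (68.2%) and lower in both in 1, Pcdhb13; the shares over all tested sets were 27.6% and 29.5%. The Pcdhb medians were log2 0.54 in retinoic acid and 0.19 without it, where those of all 41345 probe sets were -0.01 in each state. The non-clustered medians were -0.12 in retinoic acid and 0.08 without it, with Pcdh18 lower by log2 0.89 and Pcdh9 lower by 0.75 in the Ctcfl line in retinoic acid. The Pcdh9 difference rests on signals of log2 5.25 in the Ctcfl line, below the filter's limit of 6, and 6.003 in wild type, barely above it.

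**Figure D4:**
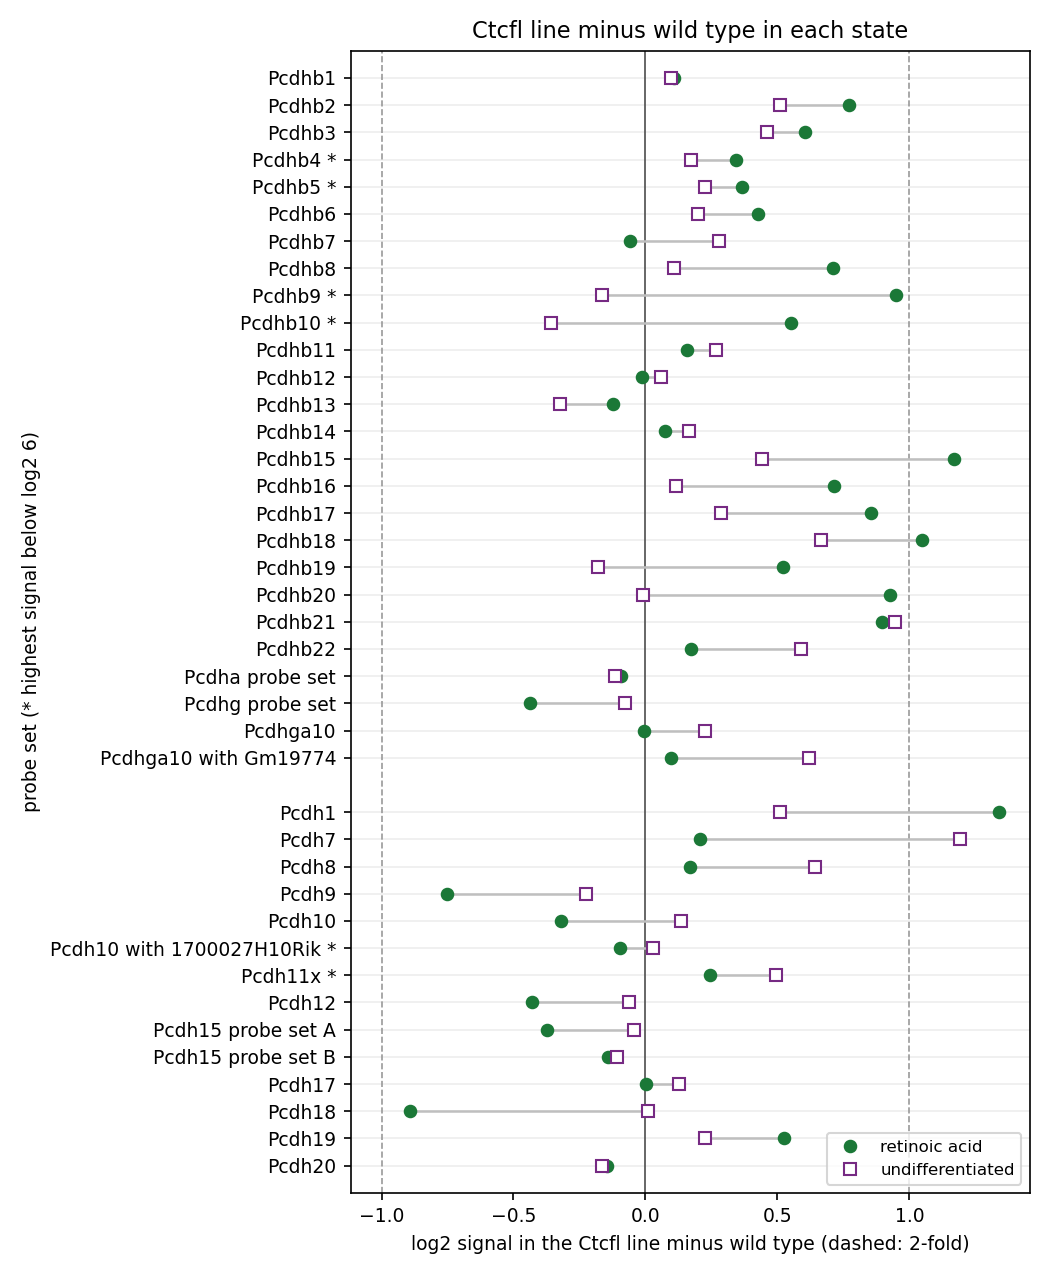
Log2 signal in the Ctcfl line minus wild type (horizontal axis) for all 40 probe sets, with filled circles for retinoic acid, open squares for undifferentiated cells and dashed lines at 2-fold. Pcdhb15, Pcdhb18 and Pcdh1 lie beyond 2-fold in retinoic acid and Pcdh7 in undifferentiated cells, and Pcdhb12 to Pcdhb14 stay between log2 -0.32 and 0.17.

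How far the retinoic acid response differed, Ctcfl line minus wild type, has no test with single arrays. It was 2-fold in 0 of the 34 tested sets, where 2.65% of all tested sets passed that limit upwards and 1.57% downwards. Nearest to that limit were Pcdh7 at log2 -0.99, Pcdhb20 at 0.94, Pcdh18 at -0.90 and Pcdh1 at 0.83. Among the 22 Pcdhb sets 16 were above 0, with a median of log2 0.22, and among the 14 non-clustered sets 3 were above 0, with a median of -0.29. Over all 41345 probe sets 49.2% were above 0, with a median of log2 -0.01. The SD of this quantity between probe sets of the same gene was 0.321. The comparisons of the lines and of retinoic acid share arrays, so these values are not independent of those above.

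Related genes were described from lists for the wider cadherin family, cytoplasmic partners and regulators of the clustered promoters. Retinoic acid was followed by a rise in 4 of 41 tested cadherin relatives and a fall in 2, and the other 35 were not past the threshold. Of all tested sets, 2.22% rose and 0.703% fell. Cdh6, a type II cadherin of the early neural crest and kidney, rose 2.97-fold (adjusted p = 0.041), whereas Cdh1, the E-cadherin of epithelia and pluripotent cells, fell 2.58-fold (adjusted p = 0.0274). The median difference over the 41 was log2 -0.12 in the Ctcfl line and -0.11 in wild type. Of 19 cytoplasmic partners, among them WAVE complex members and the kinases Ptk2b and Fyn, 0 passed in limma; at an unadjusted p under 0.05, 3 were higher and 1 was lower, where 13.1% and 7.52% of all tested sets were. Their medians were log2 0.09 in the Ctcfl line and 0.19 in wild type. Of 29 regulators of the clustered promoters, 1 rose and 1 fell, beside 2.22% and 0.703% of all tested sets. With an unadjusted p under 0.05 in limma, 3 regulators were higher and 5 lower, beside 13.1% and 7.52% of all. Tet2, which oxidises methylated cytosine, rose 2.53-fold (adjusted p = 0.0449), and Dnmt3b, which methylates the clustered promoters in the embryo, fell 7.04-fold (adjusted p = 0.0107). Ctcf itself differed by log2 -0.07 in the Ctcfl line and 0.15 in wild type (adjusted p = 0.913). With the line, 0 genes of these 3 lists passed in limma. At an unadjusted p under 0.05, 4 cadherin relatives, 1 partner and 1 regulator were higher, and 4 cadherin relatives were lower, where 6.96% and 2.87% of all tested sets were. The 1 regulator was Ctcfl itself, the gene that the Ctcfl line overexpresses by design.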

How the data were processed

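The files hold 1 value per probe set and array, a log2 signal; the deposited log2 values come from Expression Console with RMA, per the labels. RMA corrects background, normalizes between arrays and summarises the probes of a set. Transcriptome Analysis Console is also named per the submitters' processing notes. Versions and the genome build were not given in the sources used here. The number of arrays, 1 for each of 4 conditions, limits the precision.

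Probe sets were named from the platform annotation: 23521 carried 1 gene symbol, 1814 several, and 16010 were not listed. All 41345 deposited probe sets entered, and the 31136 whose highest log2 signal was at least 6 were tested. An additive limma model (limma 3.58.1, R 4.3.3) with retinoic acid and line as terms was fitted on all of them with lmFit and eBayes. It leaves 1 residual degree of freedom per probe set, with a prior of 4.00 degrees of freedom, so the interaction is the error. Two-sided p-values received the Benjamini-Hochberg adjustment over the 31136, with a threshold of 0.05. Single differences between 2 arrays have no test, and at least 2-fold was the limit for counting them. The fit was also run on simulated data with additive effects and noise drawn from limma's prior. Such data hold no interaction, so they cannot test the additive model. Gene order and promoter sequences came from RefSeq on GRCm38.p6. The members and gene lists were chosen with earlier results of these data known. Values on every array are given for members past the test, at least 2-fold apart in any comparison, with several symbols, or among the 3 of highest mean signal in their group. The alternatives were other filters, quantile normalization, fewer features, a prior following mean expression, limma's treat with a 2-fold limit, a 3-fold limit and means in place of medians. A filter on mean signal was added after seeing the data.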

Additional observations from a re-analysis of the deposited data

Results flagged for a closer look

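Pcdh1 had retinoic acid differences of opposite sign in the lines, log2 0.41 in the Ctcfl line and -0.42 in wild type. The SD between probe sets of the same gene was 0.331 and 0.303 in these comparisons, which holds no variation between samples. The difference of the differences was log2 0.83, and with 1 array per condition it was not tested.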

How the results depend on the processing

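The count of 9 protocadherins that rose with retinoic acid was 9, with the same 9 probe sets, under a filter at log2 7, quantile normalization, 1 probe set per gene, annotated probe sets alone and a prior that follows mean expression, with adjusted p up to 0.0405. With a filter on mean signal, added after seeing the data, it was 8, since Pcdhb21 was not tested. With no filter it was 1 (Pcdhb21; adjusted p of the 9 between 0.0473 and 0.0822), and with a 2-fold limit in limma 0; over all probe sets the calls were 169 and 33 in place of 910, and the cause was not tested. The line effect gave 0 protocadherins under each of these settings. A 3-fold limit left 2 of 8 retinoic acid differences in wild type, 5 of 11 in the Ctcfl line, 0 of 1 line differences in undifferentiated cells and 0 of 3 in retinoic acid. The difference of differences was 2-fold in 1 with no filter (Pcdhb9) and in 1 with quantile normalization. A filter at log2 7, which leaves fewer sets, moved medians by more than the spread between probe sets of a gene: to log2 0.79 (all, retinoic acid in the Ctcfl line), 0.43 (all, line in retinoic acid), 0.82 and 0.97 (clustered and Pcdhb, retinoic acid in wild type) and 0.66 (clustered, line in retinoic acid). No called direction reversed. No paired analysis was possible because each condition had 1 array and no replicate numbers; the additive model already takes the retinoic acid effect within each line. Signals near background limit most Pcdhb values.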
